A study of Mus musculus with 3 samples.

Results

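Interferon-stimulated genes are the genes that cells switch on after interferon binds its receptors. The 42 described here are a list of mouse genes given by name and matched by symbol. The list was chosen with earlier results of these data known. All 42 matched a gene number and a row in the deposited tables, out of 17870 genes listed in at least 1 library. Type I interferons act through the receptor chains Ifnar1 and Ifnar2 and the kinases Jak1 and Tyk2, which lead to a complex with Stat2 and Irf9 that binds the interferon-stimulated response element (ISRE). Interferon gamma acts through Ifngr1 and Ifngr2, and its target genes often hold the gamma-activated site (GAS). The products block viral entry, translation and replication, and many are kept at a low level in cells that have met no virus.

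The cells were primary hepatic stellate cells, the vitamin A-storing pericytes of the liver. They came from male C57BL/6 mice aged 24 weeks of 3 genotypes, wild type, TLR4-/- (lacking the receptor for bacterial lipopolysaccharide) and CD44-/- (lacking a hyaluronan receptor). Cells of every genotype went through the same steps, a density gradient, depletion of CD11b-positive macrophages, 3 days of culture with 10% serum and 24 h without serum. No interferon or other agent is named in the labels. The sources used here name neither the alleles nor any pooling of animals. With 1 library per genotype, differences lack a replicate check and none was tested. Where 3 values are listed without a genotype, wild type comes first, then the library labelled TLR4-/-, then CD44-/-.

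The libraries held 24078669, 23659074 and 21460725 expected counts. Levels are in FPKM, fragments scaled to transcript length and library size. Cd44 had 17.2 FPKM (wild type) and 2.57 FPKM in CD44-/-. Tlr4 had 15.8 FPKM (wild type) and 10.9 FPKM in the library with the TLR4-/- label, which is 0.693 of wild type (95% counting interval 0.639 to 0.752). For that reason the genotype of the second library is given as a label only. All 10 stellate markers were measured in every library, from 23.7 FPKM for Rgs5 to 588 FPKM for Col1a1. Acta2, the actin of activated stellate cells, was at 235, 81.5 and 148 FPKM and Col1a1 at 588, 358 and 205 FPKM. Summed over 19 macrophage markers the level was 75.3 FPKM (wild type), 31.2 FPKM (library labelled TLR4-/-) and 737 FPKM (CD44-/-). Of those markers, 17 were measured, and all 17 were highest in CD44-/- and lowest in the library labelled TLR4-/-. Only 11 of the 17 reached 1 FPKM outside CD44-/-, and the others could only be highest there. Of the markers of resident liver macrophages, Cd5l was at 1.06, 0.60 and 21.8 FPKM, Marco at 0.46, 0.11 and 4.87 FPKM, Vsig4 at 0.26, 0.06 and 3.71 FPKM and Clec4f at 0.16, 0 and 0.68 FPKM, while Timd4 was at 0 in every library. Endothelial markers summed to 103 FPKM (wild type), 65.5 FPKM (library labelled TLR4-/-) and 53.1 FPKM (CD44-/-). Much of each sum came from Esam, at 29.2, 40.8 and 18.2 FPKM, and Egfl7, at 31.4, 21.4 and 23.9 FPKM. Of 10 measured endothelial markers, 9 were highest in wild type and 9 were lowest in the library labelled TLR4-/-.

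The regulatory letters of these genes are shown first, because interferons are known to act on target genes through the ISRE and the GAS. The ISRE core was searched as GAAA, any 2 bases and GAAA, and the GAS core as TTCNNNGAA, on both strands, in the 300 bases around the start in the RefSeq promoter table of GRCm38.p6, from 250 bases before it to 50 after. A promoter entry matched 31 of the 42 genes. The ISRE core was present in 17 of the 31 (54.8%), against 3.99% of all 27025 genes with an entry. The GAS core was present in 8 of the 31 (25.8%), against 9.55% of all genes. A match describes letters and does not show that a factor binds there.

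Isg15 and Gbp2 are shown over the 250 bases before the start, because the first stood above wild type in both other libraries while the second stood below it in one and above it in the other. Capitals mark ISRE cores, which overlap in Isg15. Isg15 is read from the minus strand at chr4:156200819-156201068 and Gbp2 from the plus strand at chr3:142620413-142620662 of GRCm38.p6.
Isg15: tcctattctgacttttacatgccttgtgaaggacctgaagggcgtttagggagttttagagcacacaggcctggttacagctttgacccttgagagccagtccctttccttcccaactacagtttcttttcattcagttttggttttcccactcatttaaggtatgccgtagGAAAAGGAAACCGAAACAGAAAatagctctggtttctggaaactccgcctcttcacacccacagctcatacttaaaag
Gbp2: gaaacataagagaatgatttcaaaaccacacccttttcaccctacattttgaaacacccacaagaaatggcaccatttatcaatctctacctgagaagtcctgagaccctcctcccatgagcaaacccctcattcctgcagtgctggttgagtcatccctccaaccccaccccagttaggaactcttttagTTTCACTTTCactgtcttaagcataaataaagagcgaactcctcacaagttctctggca

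Ifit3 and Ifit1 are shown over 30 bases around each ISRE core, because these neighbours carry the same paired cores while their levels in the library labelled TLR4-/- differed from wild type by different amounts. Both are read from the plus strand of chromosome 19. The cores begin 156 and 122 bases before the start of the promoter entry in Ifit3, and 104 and 85 bases before it in Ifit1. The annotated Ifit3 gene begins earlier, at 34583119, so its cores lie inside that span. Ifit1 is annotated from 34640889, after its cores.
Ifit3, chr19:34583363-34583392: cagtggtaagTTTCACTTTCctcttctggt
Ifit3, chr19:34583397-34583426: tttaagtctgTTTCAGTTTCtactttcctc
Ifit1, chr19:34640775-34640804: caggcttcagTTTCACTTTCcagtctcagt
Ifit1, chr19:34640794-34640823: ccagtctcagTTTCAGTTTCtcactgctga
The far core had the same 10 letters in both genes, and so had the near core. In the window of Xaf1, the member with the highest ratio of CD44-/- to wild type, neither core was found.

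The genes were spread over a wide range of levels in all 3 libraries. In wild type, 39 of 42 reached 1 FPKM and 20 reached 10 FPKM, against 39 and 16 in the library labelled TLR4-/- and 40 and 27 in CD44-/-. The highest was Ifitm3, a membrane protein that blocks viral fusion, at 393 FPKM in wild type, followed by the tethering protein Bst2 at 175 FPKM and Ifi27 at 111 FPKM. Oas3 and Mx1 stayed under 1 FPKM in every library. Mx1, a GTPase that is defective in many inbred mouse strains, was lowest, with 4, 4 and 10 reads. The 40 genes at 1 FPKM or more in at least 1 library are called measured.

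**Figure D1:**
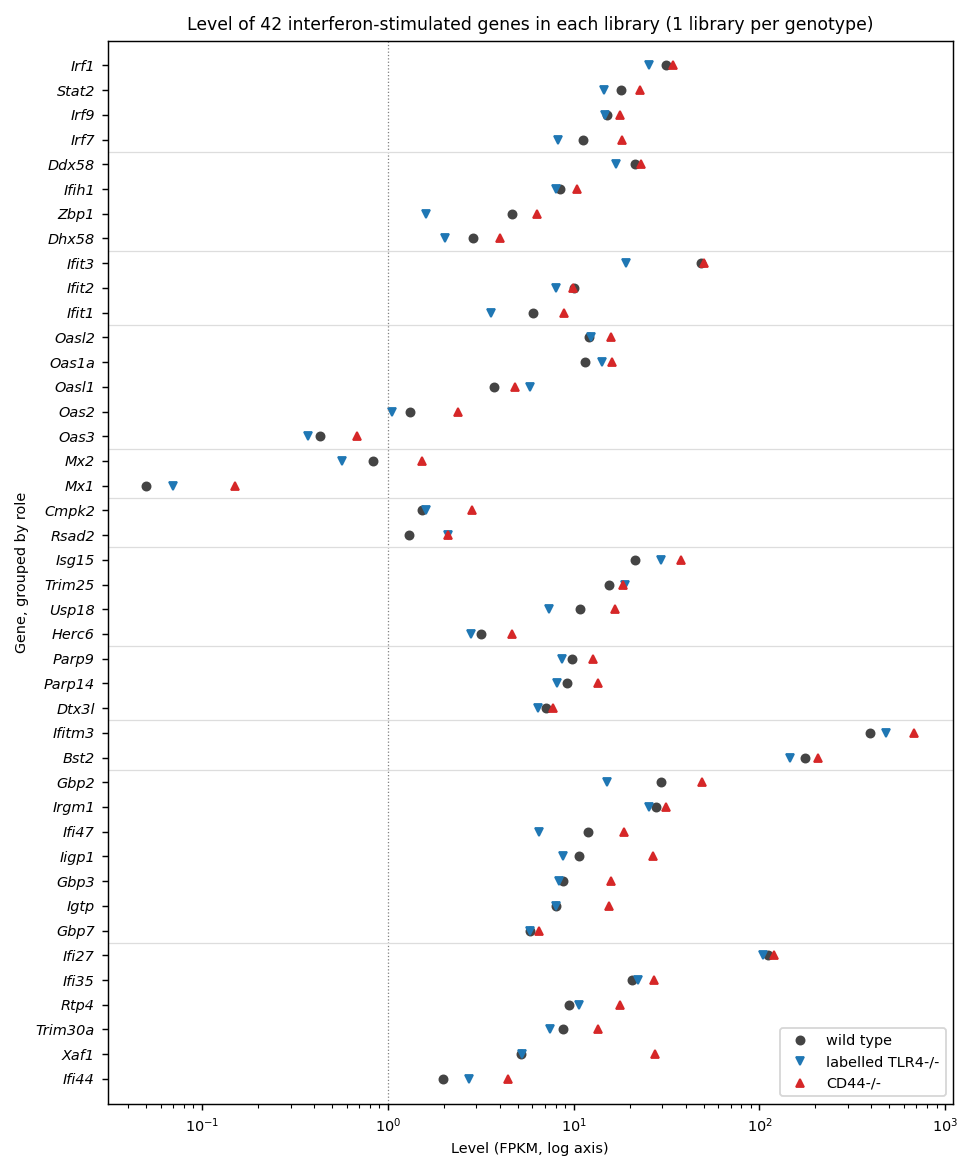
Level of each of the 42 genes in FPKM on a log axis, 1 point per library, with genes grouped by role and the dotted line at 1 FPKM. The CD44-/- point lies furthest right for 37 of the 40 genes at 1 FPKM or more in at least 1 library, and levels run from 0.05 FPKM for Mx1 in wild type to 682 FPKM for Ifitm3 in CD44-/-.

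CD44-/- held the highest level of 37 of the 40 measured genes, against 33.3% of all 12371 measured genes. The exceptions were Ifit2, highest in wild type, and Oasl1 and Trim25, highest in the library labelled TLR4-/-. Mx2, counted among the 37, reached 1 FPKM only in CD44-/-, so it could only be highest there. The library labelled TLR4-/- held the lowest level of 27 of the 40, against 33.7% of all genes. The other 13 were lowest in wild type and 0 were lowest in CD44-/-, where 29.9% of all genes were lowest.

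Differences are given as log2 of the ratio of FPKM + 1, which understates the change of low genes, for genes at 1 FPKM or more in either library. For single genes the plain ratio of FPKM is given, with an exact binomial 95% interval from the reads that covers counting error only. In CD44-/- against wild type, 39 of 40 genes had a log2 ratio above 0, against 54.7% of 12247 genes, and 1 below, against 45.1%. The median was 0.44, with quartiles at 0.24 and 0.62, and the median over all genes was 0.03. At least 2-fold higher on that scale were 2 of the 40, Xaf1 and Iigp1, against 2.24% of all genes, and 0 of the 40 were at least 2-fold lower, against 1.97%. With so few genes past 2-fold, that count does not set the list apart. The counting interval lay above 1 for 37 of the 40, against 31.6% of all genes, and below 1 for 0, against 25.2%.

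In the library labelled TLR4-/- the genes lay on both sides of wild type. Of 39 genes, 13 had a log2 ratio above 0 and 26 below, against 53.9% and 45.8% of 12098 genes. The median was -0.12, with quartiles at -0.29 and 0.04, and the median over all genes was 0.03. At least 2-fold lower were Ifit3 and Zbp1, 2 of 39 against 2.69% of all genes, and 0 of 39 were at least 2-fold higher, against 1.04%. The counting interval lay below 1 for 20 genes and above 1 for 7, against 29.1% and 34.4% of all genes. Both comparisons use the same wild-type library.

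**Figure D2:**
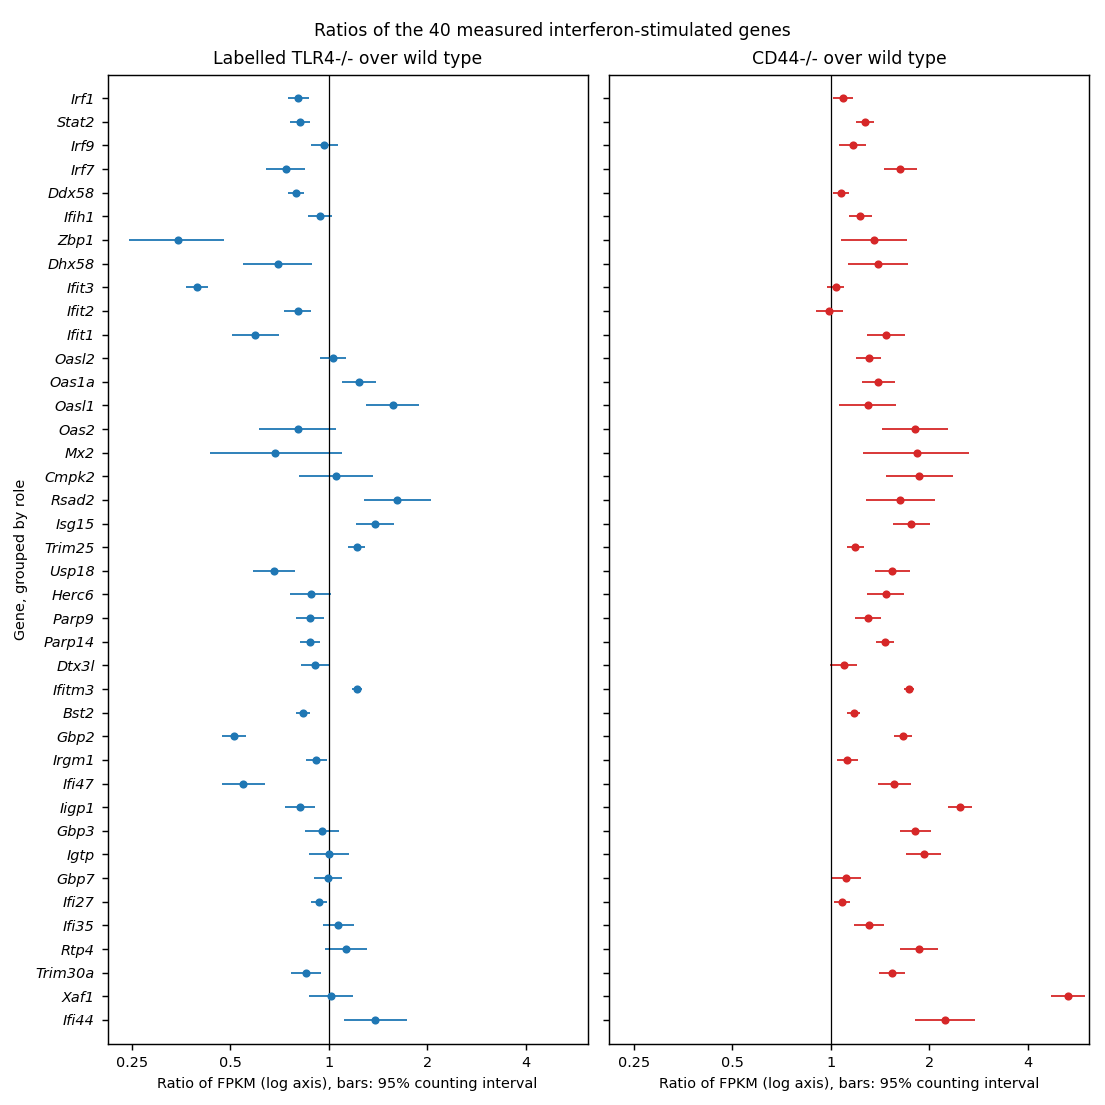
Ratio of FPKM to wild type on a log axis for the 40 measured genes in the library labelled TLR4-/- (left) and CD44-/- (right), with bars for the 95% counting interval. Right-hand points run from 0.990 for Ifit2 to 5.30 for Xaf1, and left-hand points from 0.345 for Zbp1 to 1.62 for Rsad2, on both sides of 1.

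The 4 transcription factors on the list had the same order of libraries, while Irf3 and Stat3, which are not on it, did not, at 20.1, 18.2 and 17.0 FPKM and at 49.0, 53.5 and 64.0 FPKM. Irf7, which amplifies type I interferon production, stood at 11.2 FPKM (wild type), 8.25 FPKM (library labelled TLR4-/-) and 18.3 FPKM (CD44-/-). Its ratios to wild type were 0.738 (0.642 to 0.847) and 1.63 (1.46 to 1.83). Stat2, a part of the ISRE-binding complex, stood at 17.9, 14.6 and 22.8 FPKM. Irf9, the DNA-binding part of that complex, differed less, at 15.2, 14.7 and 17.7 FPKM, and its interval against wild type held 1 in the library labelled TLR4-/- (0.882 to 1.07). Irf1, an early target of interferon gamma, stood at 31.5, 25.3 and 34.3 FPKM, with a ratio of 1.09 (1.02 to 1.17) in CD44-/-. For each of these 4 genes the library labelled TLR4-/- was lowest and CD44-/- highest.

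The 4 nucleic acid sensors on the list had that order too, against 18.8% of all measured genes. Outside the list, Tlr7 shared it, at 0.41, 0.04 and 2.67 FPKM. Tlr3 and the DNA sensor Cgas did not, at 4.12, 4.21 and 4.91 FPKM and at 1.55, 2.31 and 2.11 FPKM. Ddx58 encodes RIG-I and Ifih1 encodes MDA5, the receptors for viral RNA in the cytoplasm. Ddx58 stood at 21.4, 17.0 and 23.0 FPKM and Ifih1 at 8.49, 7.99 and 10.5 FPKM, where the interval of the library labelled TLR4-/- against wild type held 1 (0.865 to 1.02). Dhx58, the related helicase LGP2 that tunes both, stood at 2.89, 2.02 and 4.03 FPKM. Zbp1, a sensor of left-handed nucleic acid that can start necroptosis, stood at 4.66, 1.61 and 6.33 FPKM. It was 2.89-fold lower than wild type in the library labelled TLR4-/- (2.09 to 4.07), on 50 reads against 150, which is the lowest ratio among the measured genes of the list.

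The Ifit genes lie side by side on chromosome 19, from Ifit2 at 34550550 to the end of Ifit1 at 34650009 (GRCm38.p6), and encode proteins that bind foreign RNA and block its translation. Ifit3 stood at 48.3 FPKM (wild type), 19.2 FPKM (library labelled TLR4-/-) and 50.1 FPKM (CD44-/-). It was 2.52-fold lower in the library labelled TLR4-/- (2.34 to 2.73), while its ratio in CD44-/- was 1.04 (0.978 to 1.10), an interval that holds 1. Ifit3 shares sequence with its copy Ifit3b, and the summed reads of both, scaled to library size, were 112, 48.2 and 123 CPM. For that sum the ratio in CD44-/- was 1.10 (1.04 to 1.16), so whether CD44-/- stood above wild type depends on how reads are divided between the copies. Ifit1 stood at 6.05, 3.61 and 8.91 FPKM, below wild type in one library and above it in the other. Ifit2 stood at 10.0, 8.05 and 9.93 FPKM, with a ratio of 0.990 (0.902 to 1.09) in CD44-/-, the only measured gene of the list with a log2 ratio below 0 there. All 3 genes were lower than wild type in the library labelled TLR4-/-, with ratios of 0.396, 0.597 and 0.803 for Ifit3, Ifit1 and Ifit2.

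The oligoadenylate synthetases, which make the messenger that activates RNase L, differed among themselves in the library labelled TLR4-/-. Oasl1, a related protein without synthetase activity, stood at 3.74 FPKM (wild type), 5.86 FPKM (library labelled TLR4-/-) and 4.85 FPKM (CD44-/-). Its ratio to wild type was 1.57 (1.30 to 1.89) in the library labelled TLR4-/- and 1.30 (1.06 to 1.58) in CD44-/-, and wild type was lowest. Oas1a stood at 11.5, 14.2 and 16.1 FPKM, again lowest in wild type; summed with its near copy Oas1g, the level was 25.9, 32.8 and 36.8 CPM. Oasl2 stood at 12.1, 12.5 and 15.8 FPKM, and its interval held 1 in the library labelled TLR4-/- (0.940 to 1.13). Oas2 and Oas3 were low, at 1.06 to 2.39 FPKM and 0.37 to 0.68 FPKM, and both were lowest in the library labelled TLR4-/- and highest in CD44-/-. Oas1b, a relative outside the list, stood at 2.94, 1.91 and 2.81 FPKM, with a ratio of 0.650 (0.488 to 0.864) in the library labelled TLR4-/-. Of the 4 measured members of this family, 4 had a log2 ratio above 0 in CD44-/- and 3 in the library labelled TLR4-/-.

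Rsad2 encodes viperin, which makes a chain-terminating nucleotide, and its neighbour Cmpk2 encodes a nucleotide kinase. Rsad2 stood at 1.30 FPKM (wild type), 2.10 FPKM (library labelled TLR4-/-) and 2.12 FPKM (CD44-/-). Both ratios to wild type had intervals above 1, at 1.62 (1.28 to 2.05) and 1.63 (1.28 to 2.08). Cmpk2 stood at 1.52, 1.60 and 2.84 FPKM, so that CD44-/- stood apart from the other libraries, with a ratio to wild type of 1.87 (1.48 to 2.37). Mx2, an antiviral GTPase, reached 1 FPKM only in CD44-/-, at 0.83, 0.57 and 1.52 FPKM. The counts of genes higher in CD44-/- than in wild type include it, and the filter allowed no other direction.

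Isg15 encodes a ubiquitin-like protein that is joined to newly made proteins. It stood at 21.4 FPKM (wild type), 29.6 FPKM (library labelled TLR4-/-) and 37.8 FPKM (CD44-/-), with ratios of 1.38 (1.21 to 1.59) and 1.77 (1.55 to 2.01). Usp18, which removes Isg15 from proteins and restrains signalling from Ifnar2, went the other way in the library labelled TLR4-/-. It stood at 10.8, 7.36 and 16.7 FPKM, with ratios of 0.680 (0.587 to 0.787) and 1.55 (1.37 to 1.75). Herc6, the ligase that attaches Isg15 in the mouse, stood at 3.18, 2.80 and 4.68 FPKM. Trim25, a ligase that modifies RIG-I, stood at 15.5, 18.9 and 18.4 FPKM, and the interval of its ratio between the library labelled TLR4-/- and CD44-/- held 1 (0.966 to 1.08).

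Parp9, Dtx3l and Parp14 act in ADP-ribosylation, the first and second as a complex whose genes overlap in the annotation. Parp14 stood at 9.25 FPKM (wild type), 8.11 FPKM (library labelled TLR4-/-) and 13.6 FPKM (CD44-/-). Parp9 stood at 9.85, 8.64 and 12.8 FPKM and Dtx3l at 7.08, 6.42 and 7.76 FPKM. All 3 were lowest in the library labelled TLR4-/- and highest in CD44-/-, and reads of the overlapping pair may be shared.

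The abundant membrane factors differed from each other in the library labelled TLR4-/-. Ifitm3 stood at 393 FPKM (wild type), 479 FPKM (library labelled TLR4-/-) and 682 FPKM (CD44-/-), with ratios of 1.22 (1.18 to 1.26) and 1.73 (1.68 to 1.79). Bst2, which holds budding virus at the cell surface, stood at 175, 146 and 206 FPKM, with ratios of 0.831 (0.791 to 0.873) and 1.17 (1.12 to 1.23). Each rests on 2911 reads or more in every library, so counting error is small beside these differences, while the spread between cultures is unknown.

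The interferon-inducible GTPases, which attack the membranes around intracellular pathogens and are known as targets of interferon gamma, had a median log2 ratio of 0.71 in CD44-/- over 7 genes, all above 0. Iigp1 (Irga6) stood at 10.8 FPKM (wild type), 8.77 FPKM (library labelled TLR4-/-) and 26.7 FPKM (CD44-/-), a ratio of 2.48 (2.28 to 2.71) in the last. Gbp2 stood at 29.4, 15.1 and 48.9 FPKM. It was 1.95-fold lower than wild type in the library labelled TLR4-/- (1.80 to 2.11) and had a ratio of 1.66 (1.57 to 1.77) in CD44-/-. Ifi47 (Irgd) showed a similar order at 11.9, 6.53 and 18.7 FPKM.

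Members of this family differed among themselves. Igtp (Irgm3) stood at 8.06, 8.07 and 15.5 FPKM and Gbp3 at 8.78, 8.37 and 15.9 FPKM, so that wild type and the library labelled TLR4-/- did not differ beyond counting error while CD44-/- stood above both. Gbp7 and Irgm1 had the lowest ratios of the family in CD44-/-, 1.12 for both, at 5.83, 5.80 and 6.51 FPKM and at 27.9, 25.5 and 31.4 FPKM. The neighbours Gbp7, Gbp3 and Gbp2 on chromosome 3 thus had ratios to wild type of 0.995, 0.953 and 0.513 in the library labelled TLR4-/-. These genes belong to families of similar sequence, and reads may be divided between relatives.

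Xaf1, which binds the apoptosis inhibitor XIAP, had the highest ratio of the list in CD44-/-. It stood at 5.18 FPKM (wild type), 5.26 FPKM (library labelled TLR4-/-) and 27.5 FPKM (CD44-/-), on 327, 327 and 1547 reads. Its ratio in CD44-/- was 5.30 (4.71 to 6.00) and in the library labelled TLR4-/- 1.02 (0.870 to 1.19). Xaf1 lies on chromosome 11 at 72301461 to 72313733, and no other gene listed in the tables overlaps it. The next ratios to wild type among measured genes in CD44-/- were those of Iigp1 and of Ifi44, which stood at 1.98, 2.74 and 4.42 FPKM with a plain ratio of 2.23 (1.81 to 2.76), which is under 2-fold once 1 FPKM is added to both. Xaf1 thus stood apart from the rest of the list in CD44-/- while it matched wild type in the library labelled TLR4-/-.

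The remaining members were highest in CD44-/- as well. Rtp4, which aids the transport of receptors to the membrane, stood at 9.47, 10.7 and 17.7 FPKM. Its annotated span overlaps that of Masp1, a gene with 19424 or more reads in every library. The extent of the overlap was not measured, and the sources used here do not say whether strand was used. Trim30a stood at 8.77, 7.47 and 13.5 FPKM and Ifi35 at 20.7, 22.1 and 27.1 FPKM. Ifi27 differed least, at 111, 104 and 120 FPKM. Its annotated span overlaps that of Ifi27l2a, which had 385, 216 and 458 reads, and reads of the pair may be shared.

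Set directly against CD44-/-, the library labelled TLR4-/- was lower for most of the list. Of 40 genes, 2 had a log2 ratio above 0, Oasl1 and Trim25, against 51.6% of 12168 genes. The median was -0.55, against 0.01 over all genes. At least 2-fold lower were 9 of 40 genes, against 3.44% of all genes, and 0 were at least 2-fold higher, against 1.32%. The 9 were Xaf1, Gbp2, Iigp1, Zbp1, Ifi47, Ifit3, Ifit1, Usp18 and Irf7, with log2 ratios of -2.18, -1.63, -1.50, -1.49, -1.38, -1.34, -1.10, -1.08 and -1.06. For Xaf1 and Iigp1 most of that distance lay between wild type and CD44-/-, and for Ifit3 between wild type and the library labelled TLR4-/-. Rsad2 did not differ beyond counting error, with a ratio of 0.991 (0.802 to 1.22).

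**Figure D3:**
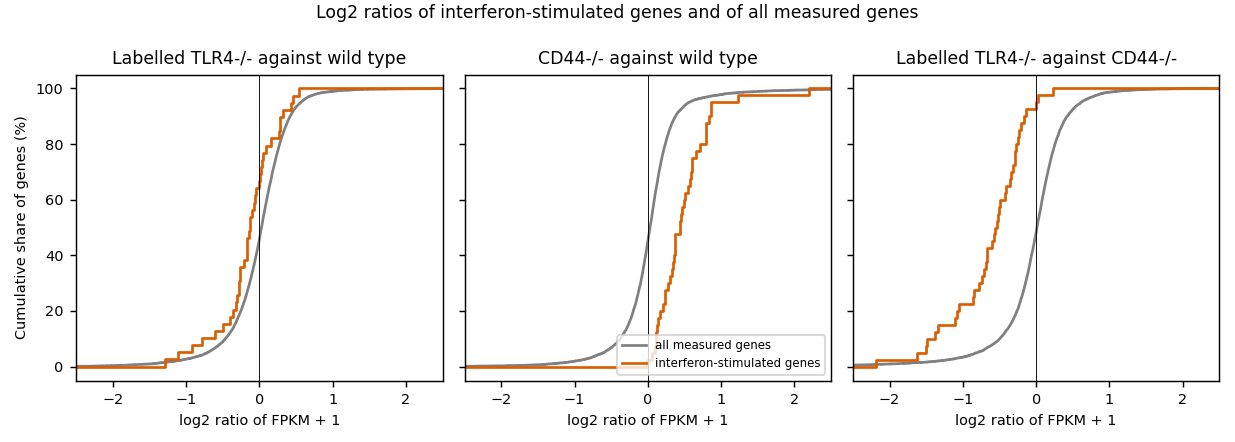
Cumulative share of genes (percent) by log2 ratio of FPKM + 1, for all measured genes (grey) and the interferon-stimulated genes (orange), in each of the 3 comparisons, with 1 library per genotype. The orange line lies to the right of the grey one in CD44-/- against wild type (medians 0.44 and 0.03) and to the left in the direct comparison (-0.55 and 0.01), and stays near it in the library labelled TLR4-/- against wild type (-0.12 and 0.03).

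The ratios can be set beside the ISRE and GAS cores. Over 16 measured genes with the ISRE core the median log2 ratio was 0.45 in CD44-/- and -0.10 in the library labelled TLR4-/-. Over 14 measured genes with an entry and no ISRE core the medians were 0.37 and -0.01. Over 8 measured genes with the GAS core they were 0.30 and -0.002, and over 22 with an entry and no GAS core 0.44 and -0.10. In CD44-/- the median was thus higher with the ISRE core than without it, and lower with the GAS core than without it. Genes with an ISRE core ranged from -1.29 for Ifit3 to 0.45 for Isg15 in the library labelled TLR4-/-. Oasl1, the gene with the highest log2 ratio there at 0.53, had no core in its window. These values describe the list and were not tested.

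Interferon itself was at or near 0 in every library. Of 19 interferon genes, 17 had 0 reads in all 3 libraries, among them Ifnb1 and Ifng, and 0 reads allow a level of up to 0.125, 0.127 and 0.140 CPM (3 reads in each library). The others were Ifna4, with 1 read in wild type, and Ifnz, at 0.11, 0.32 and 0.13 FPKM. Markers of T and NK cells, which make interferon gamma, summed to 0.07, 0.15 and 0.27 FPKM, and Siglech, a marker of the plasmacytoid dendritic cells that make type I interferon, was at 0.07, 0.02 and 0.06 FPKM. Of 3 further markers of those cells, Klk1 was at 0 throughout, Ccr9 at 0.04, 0.10 and 0.13 FPKM and Cox6a2, also a muscle gene, at 0.38, 7.91 and 6.22 FPKM. Markers of B cells summed to 0.16, 0 and 0.14 FPKM.

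Of 6 receptor chains, 5 were measured and Ifnlr1, a chain of the interferon lambda receptor, was at 0.19, 0.14 and 0.07 FPKM. In CD44-/- the counting interval lay above 1 for 4 of the 5 and below 1 for Ifngr1. Ifnar2, the chain that recruits Stat2 and Usp18, stood at 83.2 FPKM (wild type), 78.1 FPKM (library labelled TLR4-/-) and 148 FPKM (CD44-/-), a ratio of 1.78 (1.70 to 1.86) in the last. Ifnar1 stood at 18.9, 19.2 and 23.4 FPKM. For interferon gamma, Ifngr1 stood at 42.1, 31.7 and 32.0 FPKM and was highest in wild type, while Ifngr2 stood at 39.2, 29.9 and 42.4 FPKM. Il10rb, a chain shared with the interleukin 10 receptor, stood at 48.8, 45.2 and 55.2 FPKM.

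The kinases Jak1 and Tyk2 stood at 70.4, 76.3 and 85.0 FPKM and at 9.30, 8.87 and 8.28 FPKM. Of 50 pathway genes, 28 were measured for CD44-/- against wild type, with a median of 0.18. Of these, 3 stood at least 2-fold higher, against 2.24% of all genes, and 0 lower, against 1.97%. The 3 were Ptpn6, Tlr7 and Irf5, with log2 ratios of 1.62, 1.38 and 1.30, and leukocytes express all of them. Ptpn6 and Tlr7 reached 1 FPKM only in CD44-/-, so they could stand only above wild type in this count. Irf5 reached it in wild type too, at 1.60 FPKM. In the library labelled TLR4-/-, 0 of 26 passed 2-fold, against 1.04% of all genes higher and 2.69% lower, and the median was -0.10.

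A second list of 44 other interferon-stimulated genes, also chosen with earlier results known, was read in the same way. It holds relatives of members, such as Ifit3b and Oas1g, so reads may be divided between the lists. CD44-/- held the highest level of 31 of 37 measured genes, against 33.3% of all genes, and the library labelled TLR4-/- the lowest of 29, against 33.7%. Ddx60, counted among the 31, reached 1 FPKM only in CD44-/-, at 0.93, 0.57 and 1.55 FPKM. In CD44-/- the median log2 ratio was 0.33, with 3 of 37 at least 2-fold higher, against 2.24% of all genes: the chemokine gene Cxcl10, at 6.00, 5.41 and 18.5 FPKM, and the guanylate-binding genes Gbp6, at 5.31, 3.35 and 16.2 FPKM, and Gbp9, at 4.76, 3.91 and 11.2 FPKM. Against wild type the library labelled TLR4-/- had a median of -0.24, 0 of 36 passed 2-fold (1.04% of all genes higher and 2.69% lower), and the lowest ratios were those of Tgtp2 and the immunoproteasome gene Psmb9, with log2 ratios of -0.83 and -0.82.

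Of 40 measured interferon-stimulated genes, 26 had the library labelled TLR4-/- below wild type and wild type below CD44-/-, against 18.8% of all 12371 measured genes. All 17 measured macrophage markers had this order, as did 5 of 10 stellate markers and 0 of 10 endothelial markers. The median log2 ratio of the macrophage markers in CD44-/- was 2.71 over 17 measured markers, all at least 2-fold higher. Only 11 of the 17 reached 1 FPKM in wild type or the library labelled TLR4-/-. The others were measured through CD44-/- alone, so they could only be highest there. For the interferon-stimulated genes the median log2 ratio in CD44-/- was 0.44. In the library labelled TLR4-/- the macrophage median was -0.98 over 11 markers, 5 of them at least 2-fold lower, against -0.12 for the interferon-stimulated genes. Over 10 endothelial markers the medians were -1.61 and -1.12, with 9 of 10 below 0 in the library labelled TLR4-/-, where Esam was the exception (ratio 1.39), and 10 of 10 below 0 in CD44-/-. Over 10 stellate markers the medians were -0.36 and 0.20. Hepatocyte markers summed to 10.4, 1.90 and 0.88 FPKM. In these bulk cultures, a different share of a cell type and a different level per cell cannot be told apart, and the part of macrophage or endothelial RNA in the ratios was not tested.

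**Figure D4:**
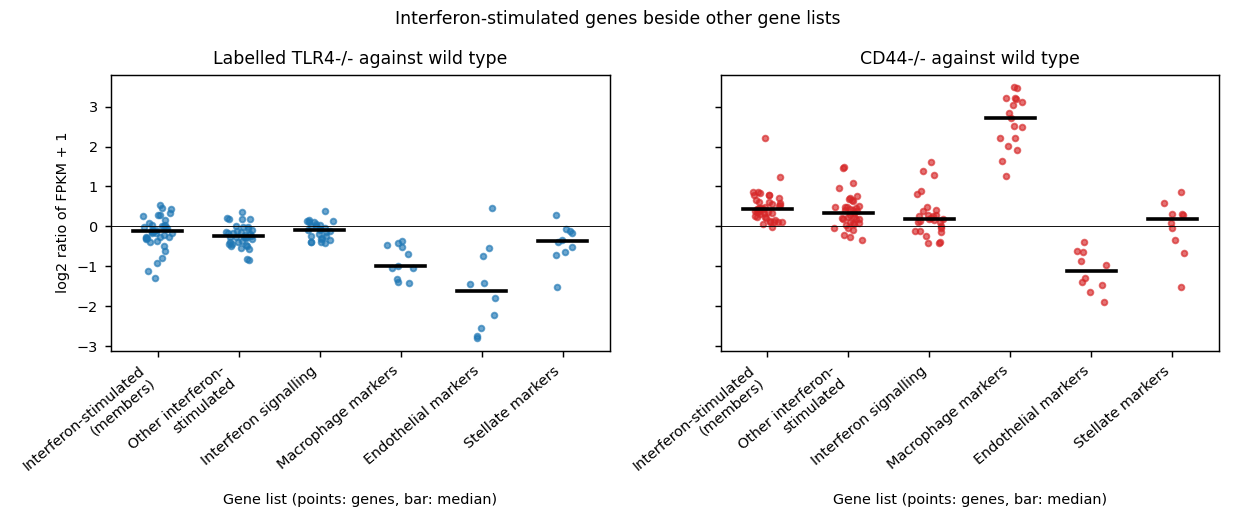
Log2 ratio of FPKM + 1 to wild type for genes of 6 lists (points, with a bar for the median) in the library labelled TLR4-/- (left) and CD44-/- (right), for genes at 1 FPKM or more in either library. On the right the medians are 0.44 for the interferon-stimulated genes, 2.71 for macrophage markers and -1.12 for endothelial markers, and on the left they are -0.12, -0.98 and -1.61.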

How the data were processed

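RNA was sequenced from 3 libraries of cultured mouse hepatic stellate cells, 1 per genotype, grouped by the genotype label. RSEM and the mm10 build are named per the submitters' processing notes, with no version. For each gene the authors deposited expected counts (fractional where reads were shared out) and FPKM. Genes absent from a table were given 0. RSEM divides reads between similar transcripts, so members of gene families are uncertain. Symbols came from the RefSeq table of GRCm38.p6, the assembly that mm10 names.

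From the deposited FPKM, log2 ratios used a pseudocount of 1 and a filter of 1 FPKM in either library. Intervals are Clopper-Pearson 95% on rounded expected counts. The steps were tested on simulated data. Python 3.11.15, scipy 1.17.1 and edgeR 4.0.16 (TMM factors for 1 alternative) were used. The members and lists were chosen with earlier results of these data known. All members are named or counted. The series text names TLR4-/- in the place of CD44-/- and speaks of triplicates, while the sample labels give 1 library per genotype. One item of the pathway is not reported here.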

Additional observations from a re-analysis of the deposited data

Results flagged for a closer look

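The interferon-stimulated genes lay on opposite sides of wild type by their median, below it in the library labelled TLR4-/- and above it in CD44-/-. The median log2 ratio of the former over the latter was -0.55 across 40 genes. Each genotype has 1 library, so the difference was not tested.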

How the results depend on the processing

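The median log2 ratio kept its sign in all 3 comparisons under a pseudocount of 0.1, no filter, a filter of 5 FPKM, median-of-ratios scaling, TPM, TMM-scaled CPM and the list without families of near-identical copies. It ranged from -0.17 to -0.12 in the library labelled TLR4-/-, from 0.37 to 0.51 in CD44-/- and from -0.65 to -0.51 between them. Without the families of copies, 24 measured genes remained. The library labelled TLR4-/- then had 1 gene at least 2-fold below wild type, and CD44-/- had 1 at least 2-fold above it. Of the 24 genes, 22 were highest in CD44-/- and 16 lowest in the library labelled TLR4-/-. In the direct comparison 4 of 24 were at least 2-fold lower, against 9 of 40 with the families. Gbp2, Iigp1, Ifi47, Ifit3 and Ifit1 dropped out, so that count leans on genes whose reads may be divided between relatives. With the filter of 5 FPKM, the library labelled TLR4-/- had 1 gene at least 2-fold below wild type. Genes at least 2-fold higher in CD44-/- numbered 3 under the pseudocount of 0.1, TPM and TMM-scaled CPM, and those at least 2-fold lower in the direct comparison numbered 11 under the pseudocount of 0.1 and 10 under TMM-scaled CPM. Counting intervals in place of 2-fold gave 7 higher and 20 lower in the library labelled TLR4-/-, 37 higher in CD44-/-, and 1 higher and 37 lower in the direct comparison. Over all genes in the direct comparison, the interval lay above 1 for 31.6% and below 1 for 29.9%. Summing Ifit3 with Ifit3b, chosen after seeing the data, left 2 genes at least 2-fold lower. No paired analysis was possible because each genotype has 1 library. Depth limits Mx1, Mx2 and Oas3, with at most 79 reads in any library.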

Other observations

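The deposited transcript length of a gene, which depends on the mix of transcripts that RSEM assigned, differed by over 5% between libraries for 2 of 42 genes, Zbp1 and Mx1. For Zbp1 it was 1352, 1328 and 1173 bases in the order used above. Without length, Zbp1 stood at 6.23, 2.11 and 7.32 CPM. Ifnar2 had lengths of 1714, 1555 and 1652 bases and 142, 121 and 243 CPM. Socs3, a feedback inhibitor of cytokine receptors, stood at 18.7, 19.0 and 35.8 FPKM, while Socs1, which restrains interferon signalling, stood at 1.69, 1.16 and 1.72 FPKM.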
